A study of Mus musculus with 6 samples.

Results

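Probe sets that carry no gene symbol in the array's annotation were examined in testes of Dazap1 mutant and wild-type mice. They were picked by that annotation alone, with no measured value, and there were 15856 of them among 229581 probe sets with values (6.91%). A further 209279 probe sets carried 1 symbol, 4446 carried several, and those with 1 symbol named 16380 genes. The annotation gave none of the 15856 an Entrez ID or accession either. They are therefore unnamed here, which does not mean that they lie outside genes, and they are called by their probe set IDs.

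Total RNA of whole testes was hybridised to Mouse Exon 1.0 ST arrays, 1 array per sample. The series held 3 arrays of adult mice homozygous for the Fn allele of Dazap1 (Fn adult), and 3 of wild types aged 21 postnatal days (Wt P21). Both groups were of mixed C57BL/6 and 129 strain background, and the titles call the samples biological replicates. The Fn allele, a floxed allele that keeps its neo cassette, encodes an altered DAZAP1 protein and is not a null allele, and spermatogenesis of the mutants stops at the spermatocyte stage. The groups differed in genotype and in age at once, so the effects of both cannot be told apart. In whole testes, fewer cells of a type and less RNA per cell cannot be told apart either. No probe set carried the symbol Dazap1, alone or among several, and the mutation could not be used to check the labels.

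An exon array measures RNA with small groups of probes, each group placed in 1 exon or a piece of one, so that a gene is covered by many probe sets. Its design drew on annotated genes and also on single cDNAs, expressed sequence tags and computed exon predictions, and sequences of the weaker kinds often have no gene name. The testis is known for a transcriptome that reaches far beyond annotated protein-coding genes, above all in meiotic and haploid germ cells. DAZAP1 is an RNA-binding protein of those germ cells with roles in splicing.

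Levels are the deposited log2 values, and differences are given throughout as Fn adult minus Wt P21, so that a positive value means a higher level in Fn adult. Levels of different probe sets also depend on how well their probes bind, and no background level came with the values. A low level is therefore described by its place on the array and is not called absence. Over all probe sets the array medians ran between 9.05 and 9.10 in Fn adult and between 8.76 and 9.05 in Wt P21. Markers of spermatocytes, the germ cells in meiosis, were high on every array, with a mean over the 6 genes between 11.74 and 11.79 in Fn adult and between 11.86 and 12.06 in Wt P21. Leydig cell markers (4 of 5 measured) averaged 12.02 to 12.24 in Fn adult, against 9.70 to 10.32 in Wt P21, and all 4 were higher in Fn adult. All 5 macrophage markers were higher in Fn adult as well, with means of 9.27 to 9.30 in Fn adult and 8.24 to 8.45 in Wt P21. Haploid spermatid markers averaged 8.09 to 8.69 in Fn adult and 7.66 to 8.32 in Wt P21. Of these 5 genes, 3 were higher in Fn adult (Tnp1, Prm1 and Acrv1). The groups overlapped for Tnp1 and Acrv1 and not for Prm1, and no probe set of the 5 genes was called. The mean over the 4 epididymis markers was 5.56, 5.83 and 5.87 on the Fn adult arrays and 7.89, 7.23 and 5.94 on the Wt P21 arrays. Crisp1 and Adam7 carried this fall, with differences of -3.43 and -1.39. For Lcn8 and Lcn9 the differences were only -0.19 and -0.06, and their groups overlapped. No probe set of these 4 genes was called. Crisp1, a secreted protein of the epididymis, stood at 4.03, 4.70 and 4.28 in Fn adult and at 10.26, 8.74 and 4.30 in Wt P21, so that Wt P21 replicates 1 and 2 were high and replicate 3 was not. The part of these cell types in the values of the unnamed probe sets was not tested.

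The unnamed probe sets lay below the named ones on every array. Their median level was 7.93, 7.90 and 7.87 on the 3 Fn adult arrays and 7.73, 7.73 and 7.83 on the 3 Wt P21 arrays. Probe sets with 1 symbol had medians of 9.19, 9.16 and 9.13 in Fn adult and 8.99, 8.84 and 9.14 in Wt P21. The unnamed median minus the 1-symbol median was thus -1.25, -1.25 and -1.26 in Fn adult and -1.26, -1.11 and -1.31 in Wt P21. This gap averaged -1.25 ± 0.002 in Fn adult and -1.23 ± 0.10 in Wt P21 (SD, n = 3 each), and the Fn adult arrays lay within the range of the Wt P21 arrays. With the mean over probe sets in place of the median the gap was -1.06, as the median over the 6 arrays.

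**Figure D1:**
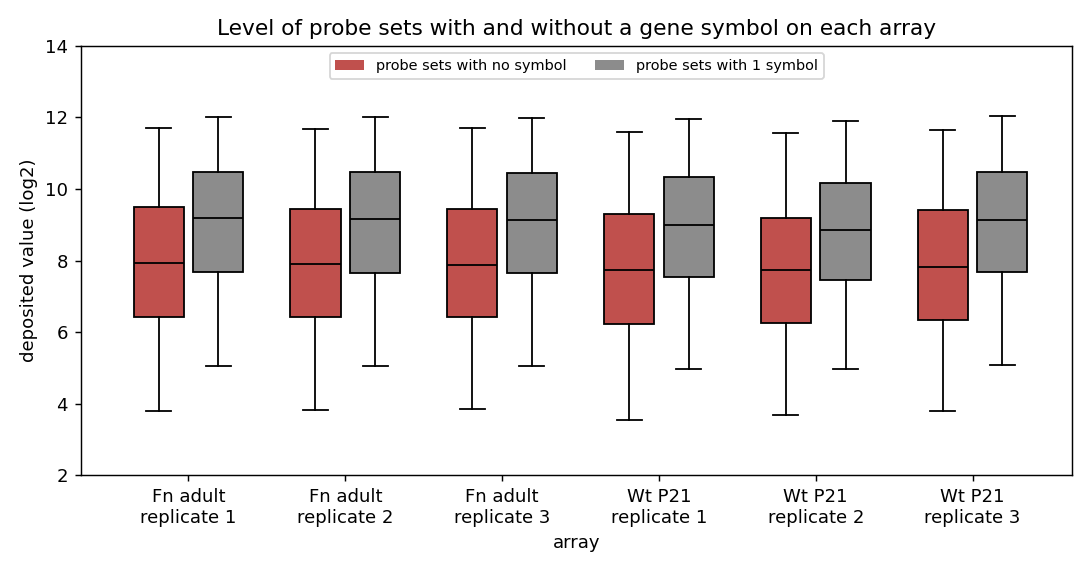
Level on each of the 6 arrays (log2), Fn adult arrays to the left of Wt P21 arrays, for probe sets with no gene symbol and with 1 symbol; the line in each box is the median, boxes run between the quartiles and whiskers between the 5th and 95th percentiles. The unnamed median lies between 7.73 and 7.93, below the 1-symbol median of every array, while the upper ends of both classes lie much closer together.

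The gap was not the same over the whole range of levels. The lower quartile of the unnamed minus that of the 1-symbol probe sets was between -1.33 and -1.21 over the 6 arrays. The same difference was between -1.07 and -0.97 for the upper quartile and only between -0.39 and -0.29 for the 95th percentile. Between 43.1% and 44.7% of the unnamed probe sets stood under the lower quartile of their array, and between 13.2% and 14.4% over its upper quartile. Mostly these were the same probe sets from array to array. In all, 5679 of the 15856 (35.8%) were under the lower quartile on all 6 arrays, against 17.7% of the 1-symbol probe sets. Over the upper quartile on all 6 arrays were 1655 (10.4%) of the unnamed and 19.7% of the 1-symbol probe sets, and over the median on all 6 were 3994 (25.2%) and 44.4%.

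By the mean over the 6 arrays, the unnamed probe sets reached from 2.43 to 14.50, with a median of 7.83 and quartiles of 6.36 and 9.38. The 1-symbol probe sets had a median of 9.07 and quartiles of 7.62 and 10.38. Unnamed probe sets made up 15.3% of all probe sets with a mean level below 4. Their share fell with level to 3.52% of those between 11 and 12, and was larger again at the top of the range. It was 4.30% between 12 and 13, 7.99% between 13 and 14 (121 of 1514) and 34.1% at 14 or more (14 of 41). The last of these bins is small, with 21 probe sets of 1 symbol beside the 14 unnamed ones.

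**Figure D2:**
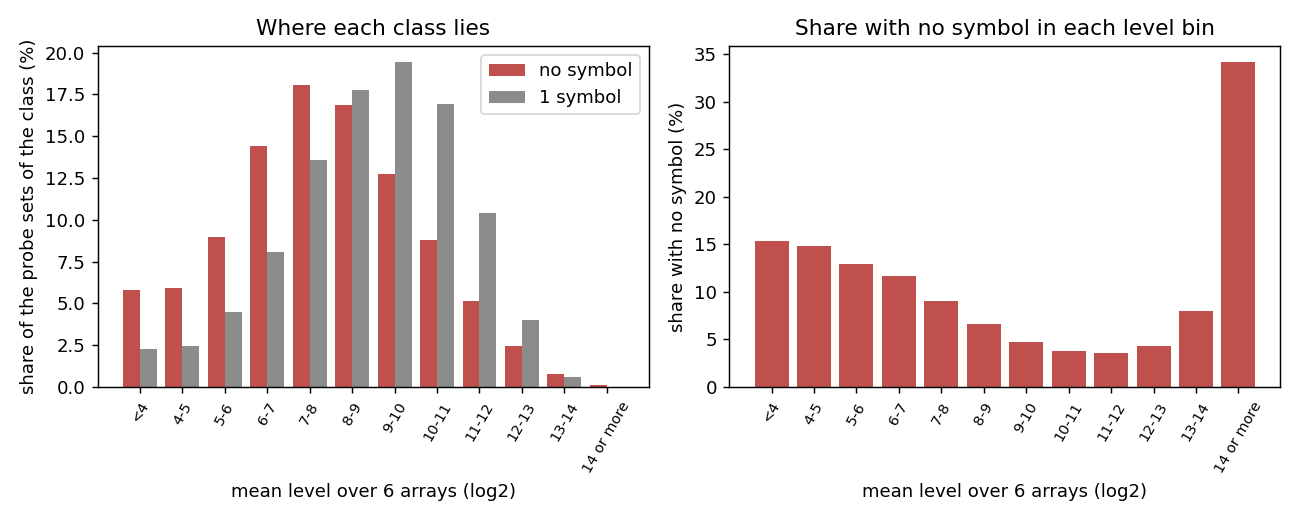
Left, share of each class of probe sets in bins of the mean level over the 6 arrays (log2), and right, share of the probe sets in each bin that carry no gene symbol (%). The unnamed share is 15.3% in the lowest bin, 3.52% between 11 and 12 and 34.1% in the highest bin, which holds 41 probe sets.

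The brightest unnamed probe sets gave nearly the same value on every array. The probe set with the highest mean, 4317557, stood at 14.52, 14.53 and 14.48 in Fn adult and at 14.45, 14.54 and 14.48 in Wt P21. The next, 4571512, stood at 14.53, 14.48 and 14.46 in Fn adult and at 14.45, 14.55 and 14.48 in Wt P21. Between 2 and 10 probe sets of the whole array were brighter than either of them on any array. The groups overlapped for both, and the differences were 0.02 and 0.00, with adjusted p = 0.948 and 0.995 (limma, two-sided, Benjamini-Hochberg). Over 14 on all 6 arrays were 13 unnamed probe sets among 32 in all, with differences between -0.05 and 0.02. Over 13 on all 6 arrays were 110 unnamed probe sets, with differences between -0.37 and 0.31, of which limma called 0 at an adjusted p under 0.05 and 1 had an unadjusted p under 0.05. Among all 977 probe sets over 13 on all 6 arrays, 1 was called and 38 had an unadjusted p under 0.05. Whether these values are near the upper limit of the scanner was not tested.

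Differences between Fn adult and Wt P21 were about as wide among the unnamed as among the named probe sets. The median difference over the 15856 was 0.10 with quartiles of -0.11 and 0.36, and 62.1% were above 0. For 1-symbol probe sets the median was 0.08 with quartiles of -0.14 and 0.33, and 59.4% were above 0. The median over all probe sets, 0.08, moves with the scaling of the arrays: it was -0.03 after quantile normalisation and -0.09 with each array centred on its 1-symbol probe sets. The unnamed median moved with it, to 0.0018 and -0.07. It stayed above that of all probe sets after quantile normalisation. Centring shifts every difference alike and cannot change this order. The middle 90% of the unnamed differences lay between -0.46 and 0.83 and the whole range between -2.73 and 4.16. Outside 4-fold, a difference of 2 on the log2 scale in either direction, lay 54 unnamed and 792 1-symbol probe sets. Upward these were 0.309% of the unnamed and 0.314% of the 1-symbol probe sets, and downward 0.0315% and 0.0640%.

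**Figure D3:**
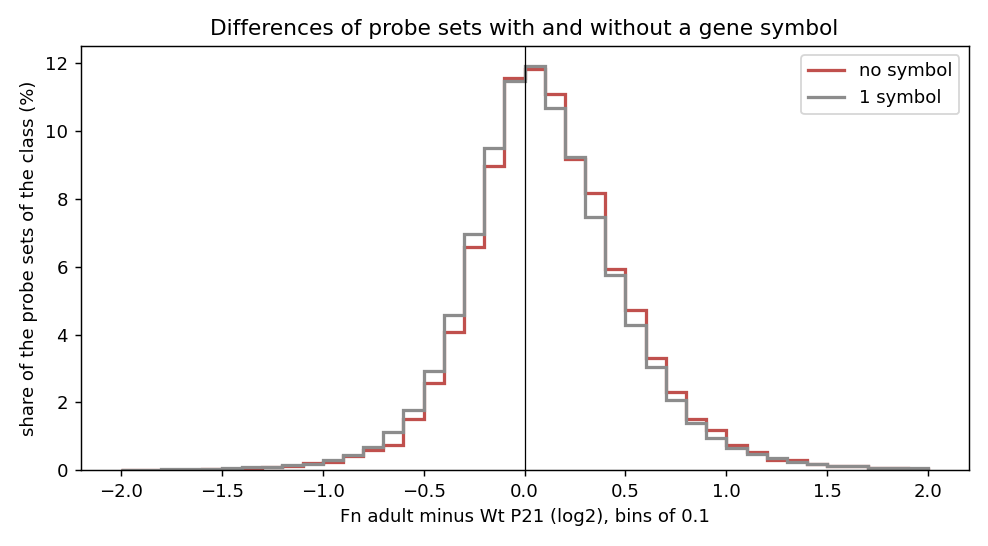
Distribution of the difference Fn adult minus Wt P21 (log2) over probe sets with no gene symbol and with 1 symbol, as a share of each class in bins of 0.1 between -2 and 2. Both curves peak a little above 0 on the deposited scale, with medians of 0.10 and 0.08; quantile normalisation and centring bring these medians close to or below 0.

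In the test, 561 of the 15856 unnamed probe sets (3.54%) passed an adjusted p of 0.05, against 4.05% of all probe sets tested. Most of these changes were rises. In Fn adult 529 unnamed probe sets were higher (3.34%, against 3.68% of all probe sets tested) and 32 were lower (0.202%, against 0.37% of all). The share called higher was close to that over all probe sets, and the share called lower was smaller. Of the unnamed calls 94.3% were rises, against 90.9% of all calls. After quantile normalisation these shares were 82.5% of the unnamed calls and 76.9% of all calls, and with arrays centred on 1-symbol probe sets they were 73.8% and 68.2%. An unadjusted p under 0.05 was found for 3232 unnamed probe sets (20.4%) and for 21.6% of 1-symbol probe sets. Single arrays moved the count of calls a great deal, among the unnamed and among all probe sets alike. On leaving out Fn adult replicate 1 there were 78 unnamed calls among 1420 in all, on leaving out Fn adult replicate 2 there were 118 among 2391, and on leaving out Fn adult replicate 3 there were 101 among 1714. Leaving out Wt P21 replicate 1 gave 289 among 5193, leaving out Wt P21 replicate 2 gave 185 among 3374, and leaving out Wt P21 replicate 3 gave 1321 among 19835, beside 561 among 9292 with all arrays.

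Other counts differed in how the unnamed stood to all probe sets. The groups did not overlap, with every Fn adult array higher, for 3153 unnamed probe sets (19.9%, against 21.4% of all). With every Fn adult array lower there were 935 (5.90%, against 7.56% of all). A difference of more than 2-fold upward was seen for 451 (2.84%, against 2.73% of all) and downward for 99 (0.624%, against 0.755% of all). The unnamed share was thus the smaller one in each of these counts other than that past 2-fold upward. Called and past 4-fold were 35 higher in Fn adult (0.221%, against 0.314% of all) and 1 lower (against 0.0375% of all).

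Because the unnamed probe sets lie lower and the count of calls varies with level, both classes were also set side by side at like level. The quartiles of the mean level over all probe sets were 7.50, 8.99 and 10.33, and 44.3% of the unnamed probe sets fell in the lowest of the 4 ranges these make, 25.6% and 16.3% in the middle ranges and 13.8% in the highest. In the lowest range 1.96% of the unnamed probe sets were called higher in Fn adult (138), against 2.58% of the 1-symbol probe sets. In the range above it the shares were 3.35% of the unnamed (136) and 4.22% of the 1-symbol probe sets. In the next range the order was the other way round, with 5.75% of the unnamed (149) and 4.92% of the 1-symbol probe sets, and in the highest range the shares were 4.84% (106) and 2.85%. The unnamed share was thus the smaller one in the lower ranges of level and the larger one in the upper ranges, and these differences between shares were not tested.

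The share called higher in the highest range was larger for unnamed than for 1-symbol probe sets in all 12 settings run, the deposited scale, both rescalings and each left-out array among them. In the lowest range it was smaller in 10 of 11 settings, the exception being the fit without Wt P21 replicate 3. It was smaller in 11 of 11 in the second range. In the third it was larger in 10 of 12, and turned without Fn adult replicate 2 and without Wt P21 replicate 3. The share called lower was smaller for the unnamed in each range on the deposited scale, with 0.185%, 0.173%, 0.193% and 0.320% from the lowest to the highest range, against 0.448%, 0.336%, 0.367% and 0.381% of the 1-symbol probe sets. The unnamed counts behind these shares were only 13, 7, 5 and 7. Over the settings run this order held in 11 of 11 in the lowest range and in the range above it, and in 11 of 12 in the next, the exception being the fit without Wt P21 replicate 3. In the highest range it held in 9 of 12, and turned with the replicate block and on leaving out Wt P21 replicate 1 or 3. With the 1-symbol probe sets weighted to the levels of the unnamed in 20 bins, 3.34% of them were called higher and 0.394% lower, beside 3.34% and 0.202% of the unnamed.

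**Figure D4:**
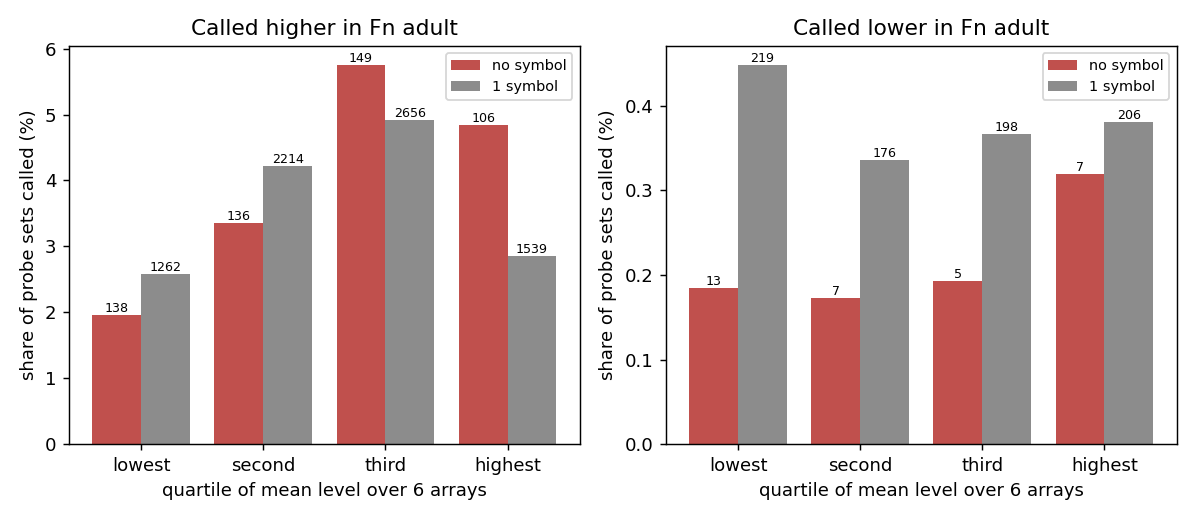
Share of probe sets (%) called higher and called lower in Fn adult at an adjusted p under 0.05 (limma), in 4 ranges of the mean level over the 6 arrays, for probe sets with no gene symbol and with 1 symbol. The unnamed share called higher is below the 1-symbol share in the lower ranges and above it in the upper ones, 4.84% against 2.85% in the highest; the unnamed falls rest on 5 to 13 probe sets per range.

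Over all probe sets in the lowest range of level, called or not, the median difference was 0.09 for the unnamed and -0.0012 for those with 1 symbol. It was also higher for the unnamed after quantile normalisation and on leaving out each array. The other settings keep every difference or shift all by 1 constant, so they cannot change such an order and are not counted here. In the range above the lowest the medians were 0.112 and 0.085, and their order turned only without Wt P21 replicate 3. This order did not hold in the upper ranges. In the next range the medians were 0.125 and 0.147, and the unnamed one was the higher only without Wt P21 replicate 2. In the highest range they were 0.0777 and 0.0782, with no steady order. There the unnamed one was higher after quantile normalisation and without Fn adult replicate 1 or 2 or Wt P21 replicate 1 or 2.

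Among called unnamed probe sets with a mean level above the median probe set and no overlap between the groups, the largest rise was that of 4487064. It stood at 11.65, 11.94 and 11.49 in Fn adult and at 7.18, 7.18 and 8.25 in Wt P21. All 3 Fn adult arrays were more than 3 log2 units above the highest Wt P21 array, which was replicate 3. The difference was 4.16 ± 0.298 (SE), with adjusted p = 6.38e-04 (limma). On Wt P21 replicates 1 and 2 it was among the levels below that array's lower quartile, so the size of the rise has an uncertain lower end and no fold is given.

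The next largest rise, of 4408891, had almost the same profile. It stood at 11.78, 12.04 and 11.29 in Fn adult and at 7.26, 7.12 and 8.27 in Wt P21, with a difference of 4.15 ± 0.327 (SE) and adjusted p = 0.00101 (limma). The values of these 2 probe sets differed by 0.03 to 0.20 on any array, and whether their probes share sequence was not tested. Both kept their call in all settings run, with differences between 3.93 and 4.51 when single arrays were left out.

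The falls were smaller, and fewer settings kept them. The largest under the same rule, of 5036987, stood at 8.05, 8.57 and 8.30 in Fn adult and at 9.47, 9.34 and 10.57 in Wt P21. The groups did not overlap, and Wt P21 replicate 3 was again the highest array. The difference was -1.49 ± 0.324 (SE), 2.80-fold lower in Fn adult, with adjusted p = 0.0468 (limma). The call was lost in each fit that left out an Fn adult array (adjusted p = 0.196 without replicate 1, 0.106 without replicate 2 and 0.149 without replicate 3), and without Wt P21 replicate 1 (0.0721) or 2 (0.0733).

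Probe set 5056168 stood at 8.29, 8.30 and 8.53 in Fn adult and at 9.65, 9.17 and 10.25 in Wt P21. Its difference was -1.31 ± 0.264 (SE), 2.48-fold lower in Fn adult, with adjusted p = 0.0369 (limma). It lost its call without each Fn adult array (adjusted p = 0.162 without replicate 1, 0.124 without replicate 2 and 0.112 without replicate 3) and without Wt P21 replicate 1 (0.0811). Both falls kept their call when Wt P21 replicate 3 was left out, with smaller differences of -1.10 for 5036987 and -1.03 for 5056168.

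**Figure D5:**
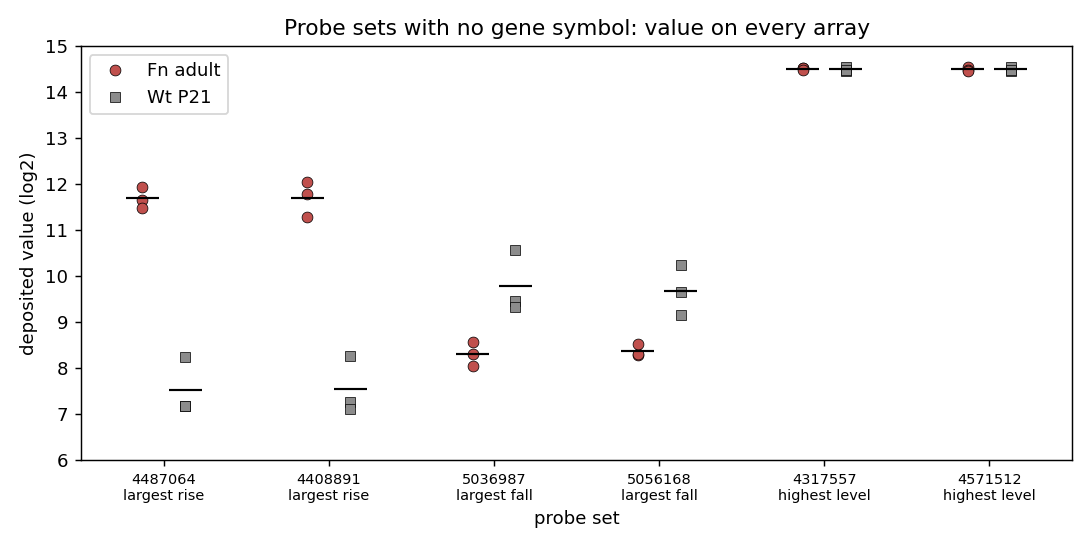
Level (log2) on the 3 Fn adult arrays, at the left, and the 3 Wt P21 arrays of the 6 unnamed probe sets described; points are arrays and bars are group means. The rises of 4487064 and 4408891 exceed 4 log2 units, the differences of 5036987 and 5056168 are -1.49 and -1.31, and the brightest probe sets, 4317557 and 4571512, stay within 0.1 over the 6 arrays.

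The 529 rises ranged from 0.61 to 4.16 on the log2 scale with a median of 1.04, and the 1-symbol rises had a median of 1.03. Many lay low on the Wt P21 arrays. Of the 529, 165 (31.2%) were under the lower quartile on all 3 Wt P21 arrays, against 21.6% of the 1-symbol rises. For 95 (18.0%) the level was also under the lower quartile on all Fn adult arrays, against 8.26% of the 1-symbol rises. Low levels were not particular to the rises. Called or not, 35.8% of the unnamed and 17.7% of the 1-symbol probe sets were under the lower quartile on all 6 arrays. The mean level exceeded the median probe set for 255. Over the median on all Fn adult arrays and under the lower quartile on all Wt P21 arrays was 1 unnamed probe set (0.00631%), against 79 with 1 symbol (0.0377%). The 20 largest unnamed rises ran between 2.36 and 4.16, with Fn adult means between 5.10 and 12.59 and Wt P21 means between 2.70 and 9.38. Among the called 1-symbol probe sets, 51 rose by more than the largest unnamed one.

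The 32 falls ranged from 0.64 to 2.73 in size with a median of 1.05. In 18 of them (56.2%) the level was under the lower quartile on all 3 Fn adult arrays, against 34.0% of the 1-symbol falls, and 12 had a mean level above the median probe set. Wt P21 replicate 3 was the highest Wt P21 array in 17 of the 32 (53.1%), against 59.3% of the 1-symbol falls. It was the highest in 15 of the 20 largest unnamed falls, and also in 14 of the 20 largest unnamed rises. In the fit without Fn adult replicate 1, limma called 0 unnamed probe sets lower. There 349 of the 15856 had an unadjusted p under 0.05 in that direction, a count that tests without any true difference could also give. The same fit called 55 of the 1-symbol probe sets lower (0.0263%).

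Replicates spread less in Fn adult than in Wt P21. The median SD over the 3 arrays of a group was 0.173 in Fn adult and 0.266 in Wt P21 for unnamed probe sets, and 0.141 in Fn adult and 0.263 in Wt P21 for those with 1 symbol. The SD was the larger in Wt P21 for 68.2% of the unnamed and 75.2% of the 1-symbol probe sets. Over Wt P21 replicates 1 and 2 alone the median SD was 0.196 for the unnamed and 0.187 for the 1-symbol probe sets. Across the unnamed probe sets, which are not independent of each other, Pearson correlations of arrays were 0.984 to 0.986 within Fn adult, 0.968 to 0.979 within Wt P21 and 0.962 to 0.973 between the groups.

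Each Wt P21 array had its own set of outlying probe sets. Replicate 3 was over both other Wt P21 arrays by more than 1 log2 unit for 440 unnamed probe sets (2.77%, against 3.27% with 1 symbol). Replicate 2 was so for 103 (0.650%, against 0.201% with 1 symbol), and replicate 1 was under both others by that much for 174 (1.10%, against 0.478%). Required to exceed every Fn adult array by more than 1 as well, replicate 3 alone stood out for 140 unnamed probe sets (0.883%, against 1.33% with 1 symbol). Of the 140, 3 were called in either direction, beside 65 of 2785 with 1 symbol. Replicate 2 alone stood out for 45 (0.284%, against 0.0913%). The pattern of Crisp1, high on Wt P21 replicates 1 and 2 only, was held by 4 unnamed probe sets (0.0252%) and by 44 with 1 symbol (0.0210%). These Wt P21 patterns were counted after the marker values had been seen.

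The order of the IDs carried no trace of the genes. Ordered by number, only 24 of 190747 neighbouring pairs of 1-symbol probe sets shared a symbol (0.0126%), and 2 unnamed probe sets were flanked on both sides by the same symbol. Unnamed probe sets made up between 6.55% and 7.40% of each of 20 equal stretches of the ordered IDs. The longest unbroken run was 5 probe sets, and 13811 of 14800 runs held 1. No gene was therefore read from the place of an unnamed probe set.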

How the data were processed

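Per the labels, testis RNA was prepared with Trizol, amplified and biotin-labelled with whole-transcript kits, and hybridised to Mouse Exon 1.0 ST arrays. The deposited log2 values, 1 column per array, were used as they are. The submitters' processing notes name build mm8, and the study's methods name the EASANA system for the array analysis. Background correction, normalisation and summarisation are not given in the sources used here. The authors' values were neither rescaled nor filtered.

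Classes came from the platform annotation, which can be old: no symbol, 1 symbol or several. Probe sets of the array outside the deposited table were not analysed here. All 229581 probe sets were fitted together with limma 3.58.1 (lmFit, eBayes) in R 4.3.3, as Fn adult minus Wt P21, two-sided, with Benjamini-Hochberg adjustment over all of them and a threshold of 0.05. The fit was tested on simulated data. The number of arrays, 3 per group, limits the precision.

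The members and the marker lists were chosen with earlier results of these data known. The unnamed probe sets given by ID were picked by rule. They were the 2 largest rises and 2 largest falls among called unnamed ones with no overlap and a mean level above the median probe set. The other 2 were the unnamed ones with the highest mean level. A marker gene needed at least 3 probe sets of its own symbol. Alternatives were quantile normalisation, centring on 1-symbol probe sets, eBayes with trend and robust, a filter on dim probe sets, the replicate number as a block, and each array left out.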

Additional observations from a re-analysis of the deposited data

How the results depend on the processing

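Quantile normalisation gave 345 unnamed probe sets higher (2.18%) and 73 lower (0.460%) in Fn adult, with a median difference of 0.0018. Of the 1-symbol probe sets it called 2.41% higher and 0.754% lower. Centring on 1-symbol probe sets gave 293 unnamed ones higher (1.85%) and 104 lower (0.656%), with a median difference of -0.066. With centring, 2.07% of the 1-symbol probe sets were called higher and 1.00% lower. Calls over all probe sets numbered 7283 after quantile normalisation and 7056 after centring. Of the 561 calls, 375 were kept after quantile normalisation and 323 after centring. The replicate number as a block gave 307 calls, 282 of them higher, and 5338 over all probe sets, and ended the call of 5036987 (adjusted p = 0.0536, limma). Same-numbered arrays deviated from their group means with correlations of 0.166, -0.078 and -0.0048. The study's methods speak of 3 independent experiments on separate RNA preparations, and no label states a pairing. The correlations cannot tell whether same-numbered arrays shared an experiment, so the block is not read as a paired test. Leaving out single arrays gave 78 to 1321 unnamed calls, 78 to 1198 higher, 0 to 123 lower and 1420 to 19835 over all probe sets. The unnamed median differences were then 0.08 to 0.14 and the level gaps -1.255 to -1.254. Level gaps here are medians over arrays, which 1 array can hardly move, while the gaps of single arrays ran from -1.31 to -1.11. Without Wt P21 replicate 3, 544 of the 561 calls were kept. The level gap was -0.13 among probe sets above the median level, where the filter removes most low members by construction, and -1.06 with means. Under all 11 other settings a smaller share of unnamed than of 1-symbol probe sets was called lower, and under 10 a smaller share called higher, the exception being the filter on dim probe sets. The planned split of members by identifier was not run, since none has one. The cause of the other changes was not tested. Signal over background limits all low levels here, since no detection call came with the values.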
